A study of Mus musculus with 12 samples.

Results

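The interferon regulatory factors (IRFs) were followed by name through 12 liver libraries. The 8 genes Irf1, Irf2, Irf3, Irf4, Irf5, Irf7, Irf8 and Irf9 were taken from the 22609 gene symbols in the files. All 8 passed the filter on low counts, and Irf4 had the fewest counts of them.

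The mice were male C57BL/6 animals aged 8 weeks, either wild type or knockout for TRIM21, a cytosolic ubiquitin ligase and antibody receptor. They had been given diethylnitrosamine (DEN), a liver toxin and carcinogen that hepatocytes turn into a DNA-alkylating agent, as 1 intraperitoneal dose of 200 mg/kg in PBS, or PBS alone. Liver RNA was sequenced 48 h later after depletion of ribosomal RNA. Groups held 3 PBS wild-type, 3 PBS knockout, 3 DEN wild-type and 2 DEN knockout libraries, and 1 DEN library came from a mouse labelled TRIM21+/-. The labels do not say how the knockout allele was made or whether controls were littermates. Differences between genotypes therefore cannot be told apart from differences of breeding or genetic background. The p-values below rest on the variation among these libraries, which may be technical in part.

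IRFs share a DNA-binding domain that reads the interferon-stimulated response element, a pair of GAAA repeats. IRF3 and IRF7 wait in the cytosol until kinases downstream of RNA and DNA sensors activate them, and then switch on interferon genes. IRF5 does a related task for inflammatory cytokines downstream of Toll-like receptors. Secreted interferon acts back through ISGF3, a complex of STAT proteins and IRF9, which raises IRF7 in turn. IRF1 activates and IRF2 mostly represses an overlapping set of targets, and IRF4 and IRF8 belong to blood cells, where they work with partners such as PU.1. TRIM21 has been reported to attach ubiquitin to several IRF proteins, among them IRF3, IRF5, IRF7 and IRF8. RNA counts do not measure that step.

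Trim21 had 93 to 225 counts in the 6 wild-type libraries and 3 to 5 in the 5 knockout libraries. The library labelled heterozygote, DENHET_136, had 7 Trim21 counts, which goes against its label, and it entered no test. Gene counts totalled 17303124 to 23059252 per library. The tissue carried the hepatocyte markers of liver at 116172 to 191555 summed CPM over 16 genes. CPM are counts brought to a common library size after scaling by TMM, a method that centres the bulk of genes. Without that scaling the median log2 fold change of all genes under DEN moved from 0.04 to 0.53 in wild type and from 0.01 to 0.41 in knockout, so small changes with DEN depend on it.

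RefSeq windows from 250 bases before to 50 after the annotated start (GRCm38.p6, 11 windows covering all 8 genes) were searched on both strands for 3 motifs. These were the response element (GAAA, any 2 bases, GAAA), the STAT dimer site (TTCNNNGAA) and the Ets-IRF composite (GGAA, any 2 bases, GAAA), which can overlap the response element. Of 32851 such windows of all genes, 3.44%, 8.3% and 2.72% hold them. The 250 bases before the start are shown 5′ to 3′ on the gene's strand, with matches in capitals, for the 3 genes with a match and for Irf7, which changed most in these livers.
Irf2 (chr8:46739495-46739744, plus strand): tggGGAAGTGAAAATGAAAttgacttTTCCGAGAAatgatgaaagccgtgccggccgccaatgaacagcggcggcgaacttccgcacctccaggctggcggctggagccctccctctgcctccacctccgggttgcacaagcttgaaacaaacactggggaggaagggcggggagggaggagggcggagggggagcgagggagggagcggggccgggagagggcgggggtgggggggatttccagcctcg
Irf1 (chr11:53769764-53770013, plus strand): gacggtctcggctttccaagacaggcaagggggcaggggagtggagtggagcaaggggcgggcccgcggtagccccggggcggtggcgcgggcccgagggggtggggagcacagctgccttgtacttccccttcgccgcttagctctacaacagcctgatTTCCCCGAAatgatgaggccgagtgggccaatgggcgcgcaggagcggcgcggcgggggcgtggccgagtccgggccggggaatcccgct
Irf8 (chr8:120736108-120736357, plus strand): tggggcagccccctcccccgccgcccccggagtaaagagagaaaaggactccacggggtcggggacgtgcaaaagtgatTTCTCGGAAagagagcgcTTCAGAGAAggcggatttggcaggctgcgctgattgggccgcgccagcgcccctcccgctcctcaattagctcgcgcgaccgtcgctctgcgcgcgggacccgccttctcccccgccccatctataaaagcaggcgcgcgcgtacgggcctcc
Irf7 (chr7:141266425-141266674, minus strand): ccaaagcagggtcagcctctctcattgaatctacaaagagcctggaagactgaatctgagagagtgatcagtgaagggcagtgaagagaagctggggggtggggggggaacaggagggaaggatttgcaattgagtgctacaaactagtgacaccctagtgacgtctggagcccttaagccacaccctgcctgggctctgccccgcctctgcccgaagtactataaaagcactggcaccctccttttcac

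In the Irf2 window a composite GGAAGTGAAA began 247 bases before the start and ran into the response element GAAAATGAAA at 241, and a STAT site TTCCGAGAA followed at 224. The Irf1 window held 1 STAT site, TTCCCCGAA, 90 bases before the start. In the first Irf8 window there were STAT sites TTCTCGGAA at 171 and TTCAGAGAA at 153. None of the 3 motifs was spelled in the Irf3, Irf4, Irf5, Irf7 and Irf9 windows, which says only that these letters are absent from these windows.

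Per kilobase of exon, Irf3 was the most abundant IRF transcript in each group and Irf8 and Irf4 were the scarcest. In PBS wild-type liver Irf3 stood at 24.3 ± 2.2 CPM per kb and Irf7 at 18.7 ± 0.79 (SD, n = 3). Irf2 at 10.7, Irf1 at 9.65, Irf5 at 8.22 and Irf9 at 6.85 CPM per kb followed, each overlapping its neighbour in this order. Irf8 was at 0.914 and Irf4 at 0.0609 CPM per kb, both apart from the rest. In PBS knockout liver Irf7, the interferon-inducible amplifier, was again the second at 16.1 CPM per kb, with Irf5 at 10.7 the next and overlapping it. In DEN wild-type liver Irf7 dropped to the fourth place at 5.49 ± 1.3 CPM per kb and its range overlapped those of Irf9 above and Irf5 below it. In DEN knockout liver Irf7 was the second once more, at 15.5 ± 3.4 CPM per kb (SD, n = 2), overlapping Irf1 at 11.3 below it. Exon lengths come from GENCODE M21 on GRCm38, not from the annotation behind the counts, so these levels are approximate.

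**Figure D1:**
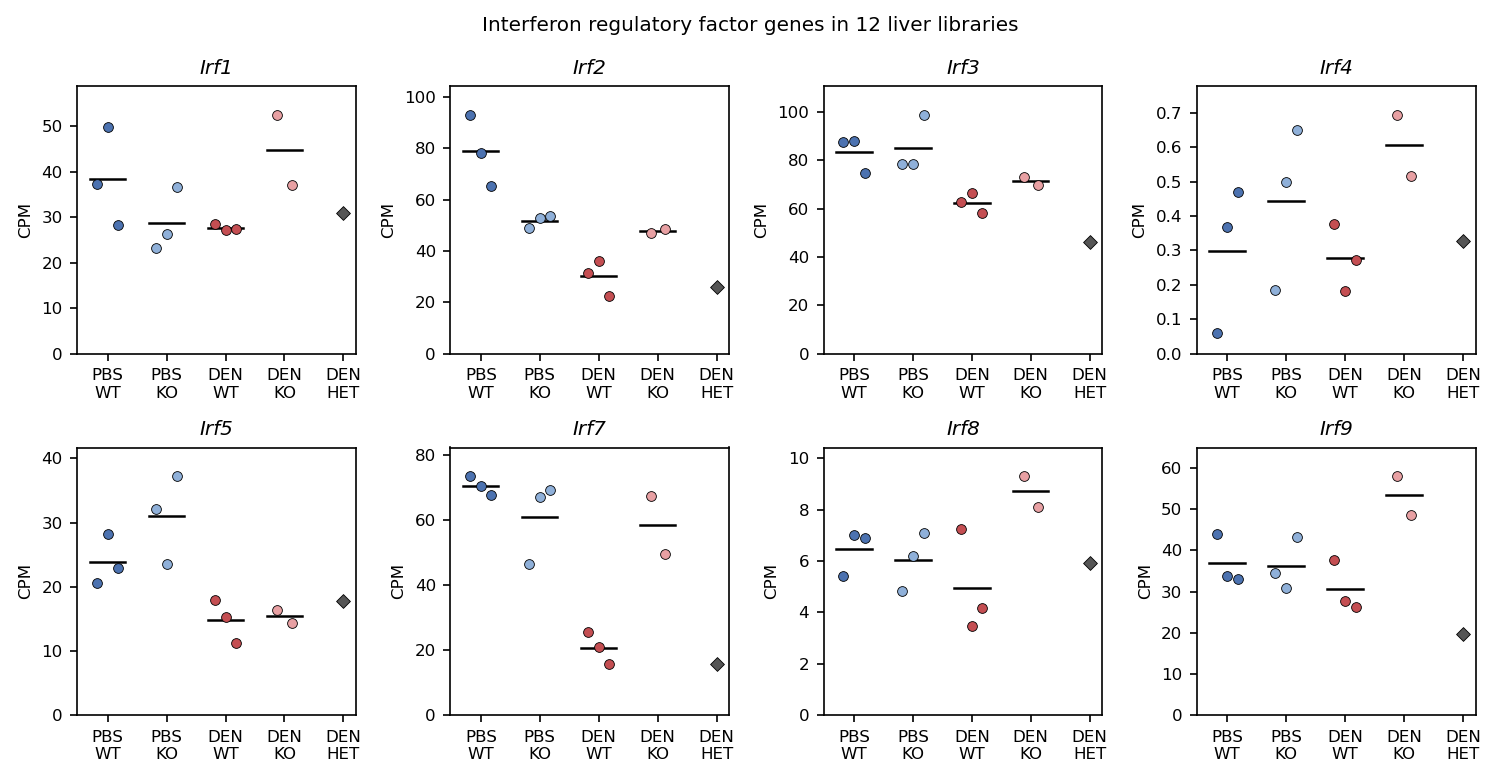
CPM (vertical axis, from 0) of each IRF gene in every library, grouped by treatment and TRIM21 genotype; circles are libraries, bars are group means, and the diamond is the single library labelled heterozygote (HET). Irf7 sits at 15.7 to 25.5 CPM in DEN wild type and at 46.4 to 73.5 CPM in the other 3 groups.

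Among the activators of interferon genes, Irf7 differed most between libraries. In this and the following sentences values stand in the order PBSWT_541, PBSWT_542, PBSWT_545, PBSKO_154, PBSKO_544, PBSKO_549, DENWT_307, DENWT_995, DENWT_996, DENKO_141 and DENKO_309. Irf7 had 73.5, 70.4 and 67.6 CPM in PBS wild type and 46.4, 67.1 and 69.3 in PBS knockout. It had 25.5, 21.0 and 15.7 CPM in DEN wild type, 67.4 and 49.5 in DEN knockout and 15.8 in DENHET_136. The 3 DEN wild-type libraries thus lay below every PBS and DEN knockout library, and DENHET_136 fell among them.

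Irf3, the constitutive partner of Irf7, varied far less. It was at 87.8, 88.2 and 74.7 CPM in PBS wild type, 78.7, 78.4 and 99.0 in PBS knockout, 62.7, 66.6 and 58.1 in DEN wild type, 73.0 and 69.9 in DEN knockout and 46.4 in DENHET_136. The DEN libraries of wild type and knockout were below all PBS libraries of their genotype. Irf5 had 20.5, 28.3 and 22.8 CPM in PBS wild type and 32.1, 23.5 and 37.2 in PBS knockout, against 17.9, 15.3 and 11.2 in DEN wild type, 16.3 and 14.4 in DEN knockout and 17.8 in DENHET_136. The DEN ranges of both genotypes overlapped each other and lay under both PBS ranges.

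Irf9, the DNA-binding subunit of ISGF3, went another way. Its CPM were 44.0, 33.8 and 33.0 in PBS wild type, 34.5, 30.9 and 43.3 in PBS knockout, 37.8, 27.6 and 26.3 in DEN wild type, 58.1 and 48.7 in DEN knockout and 19.7 in DENHET_136. Both DEN knockout libraries were above all others, and DENHET_136 was the lowest of the 12.

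For the activator and repressor pair, Irf1 had 37.2, 49.8 and 28.2 CPM in PBS wild type, 23.3, 26.2 and 36.7 in PBS knockout, 28.5, 27.2 and 27.3 in DEN wild type, 52.5 and 37.1 in DEN knockout and 30.9 in DENHET_136. DEN wild-type libraries were close together, at 27.7 ± 0.76 (SD, n = 3), whereas PBS wild-type libraries spread widely. Irf2 had 93.1, 78.3 and 65.1 CPM in PBS wild type, 49.0, 52.7 and 53.5 in PBS knockout, 31.6, 36.2 and 22.3 in DEN wild type, 46.8 and 48.5 in DEN knockout and 25.9 in DENHET_136. PBS wild type was thus the highest group for Irf2 and DEN wild type the lowest, with both knockout groups between them.

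The blood cell members were scarce. Irf8 had 90, 134 and 103 counts in PBS wild type (5.41, 7.03 and 6.90 CPM), 79, 124 and 131 in PBS knockout, 173, 76 and 123 in DEN wild type, 241 and 189 in DEN knockout (9.30 and 8.12 CPM) and 145 in DENHET_136. DEN knockout was the highest group, with DENWT_307 at 7.23 CPM the nearest library of the DEN wild type. Irf4 had 1, 7 and 7 counts in PBS wild type, 3, 10 and 12 in PBS knockout, 9, 4 and 8 in DEN wild type, 18 and 12 in DEN knockout and 8 in DENHET_136. At such counts no difference of Irf4 passed in any comparison.

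The first comparison asked how DEN changed IRF transcripts in wild-type liver. Irf7 and Irf2 fell most, and Irf3 and Irf5 fell less, while no member rose. In edgeR 4 of 8 members were called, all lower, where 55.8% of all 13255 tested genes were called, 29.2% higher and 26.7% lower. The share of members called was thus close to that of all genes. The DEN and PBS groups did not overlap for these 4 members, and for 64.7% of all genes. The members' median log2 fold change was −0.45, against 0.04 over all genes. In these bulk libraries fewer cells of a type and less RNA per cell cannot be told apart.

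Irf7 fell by 1.77 ± 0.20 log2 units (SE, adjusted p = 1.1e-05, edgeR, n = 3 and 3), a 3.403-fold lower level. Irf2 fell by 1.39 ± 0.17 (adjusted p = 1.8e-05), or 2.63-fold. Both calls held in all 11 fits that left out 1 library and under all 6 other settings. Irf3 had a smaller value of −0.42 ± 0.12 (0.010), which was 0.06 on library totals alone. The Irf5 value was −0.69 ± 0.20 (0.0096), and its call was lost on library totals alone (−0.22, 0.30) and without PBSWT_542 (−0.55, 0.053). Relative to the median of all genes the values of Irf3 and Irf5 were −0.46 and −0.73 with TMM and −0.46 and −0.74 on library totals. Scaling shifts all genes of a library alike, so these pairs match by construction and do not test the falls. Called genes split into 3868 higher and 3534 lower with TMM, and into 6890 and 1857 on library totals.

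Irf1 at −0.47 ± 0.21 (0.074), Irf8 at −0.38 ± 0.26 (0.22), Irf9 at −0.27 ± 0.17 (0.20) and Irf4 at −0.09 ± 0.64 (0.91) did not pass in edgeR. Each of these values was above 0 on library totals alone. Without DENWT_307 the members called were 6, with Irf8 (−0.74, 0.017) and Irf9 (−0.45, 0.048) added, and Irf1 passed in the fit restricted to these 2 groups (−0.49, 0.039) and without PBSWT_545 or PBSKO_549.

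The same treatment was then compared in TRIM21 knockout liver, with 2 DEN libraries against 3 PBS libraries. Here Irf5 fell and Irf9 rose, and Irf7 and Irf2 did not pass. In edgeR 2 of 8 members were called, 1 each way, where 22.7% of all genes were called, 12% higher and 10.7% lower. The groups did not overlap for 6 members, Irf1, Irf8 and Irf9 above and Irf2, Irf3 and Irf5 below, and for 51.5% of all genes. Irf5 had a value of −1.01 ± 0.23 (adjusted p = 0.0065), a 2.01-fold lower level, lost without DENKO_309 (−0.91, 0.084). Irf9 rose by 0.56 ± 0.19 (0.048), a call that held in 4 of 11 fits without 1 library and was lost in 7, with adjusted p up to 0.27 without DENKO_141. It was also lost with RLE scaling, with DESeq2 and in the fit of these 2 groups alone. Without DENKO_309 no member was called.

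Irf7 had a value of −0.06 ± 0.21 (0.87) and Irf2 of −0.12 ± 0.19 (0.69), and both were above 0 on library totals alone, at 0.33 and 0.27. For Irf1 the value was 0.64 ± 0.23 (0.064), for Irf8 0.53 ± 0.28 (0.19), for Irf3 −0.25 ± 0.14 (0.20) and for Irf4 0.42 ± 0.59 (0.65). On library totals Irf1 and Irf8 passed beside Irf9 and Irf5 (1.03 and 0.91), and Irf3 was at 0.14. Irf1 also passed without PBSWT_542, PBSWT_545 or PBSKO_549. The 1594 higher and 1416 lower calls over all genes became 4722 and 573 on that scaling.

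**Figure D2:**
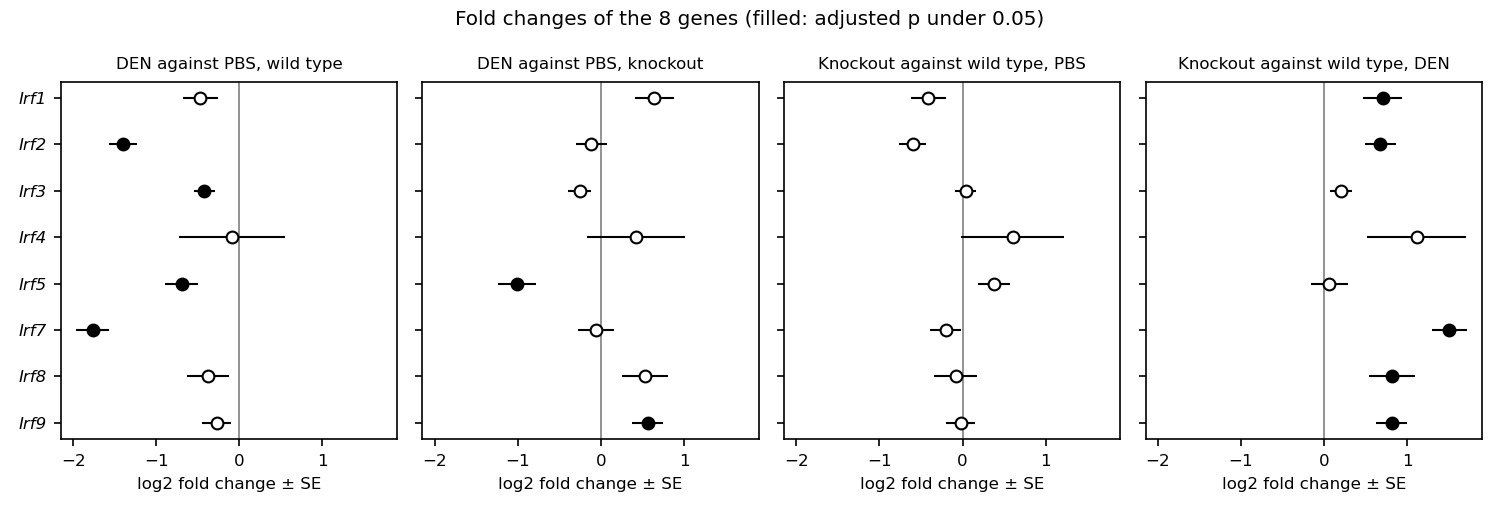
Log2 fold change ± SE (horizontal axis) of the 8 IRF genes in 4 comparisons of the edgeR fit; filled circles have an adjusted p under 0.05. In wild type DEN gives values below 0 for all 8 genes, of which Irf1, Irf3, Irf4, Irf8 and Irf9 turn above 0 on library totals alone, and in the knockout against wild type under DEN all 8 lie above 0, Irf5 at 0.06 and at −0.0084 on library totals.

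Without DEN the loss of TRIM21 left no IRF transcript called. Under PBS 0 of 8 members passed in edgeR, and the same count came from DESeq2 and limma-voom, where 0.00754% of all genes, Trim21 alone, was called. On simulated counts this comparison recovered 56% of 2-fold and 12% of 1.5-fold changes, so differences of that size can be missed. At an unadjusted p under 0.05 there was 1 member among 508 genes. That member was Irf2, at −0.60 ± 0.17 (unadjusted p = 0.0030, adjusted p = 1), with the 3 knockout libraries below the 3 wild-type libraries, as for 8.1% of all genes without overlap. For the members reported as TRIM21 substrates the values were 0.04 ± 0.12 for Irf3, 0.38 ± 0.20 for Irf5, −0.20 ± 0.19 for Irf7 and −0.08 ± 0.26 for Irf8.

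Under DEN the genotypes differed in more members. Irf7, Irf8, Irf9, Irf1 and Irf2 were higher in knockout than in wild-type liver, and none was lower. In edgeR 5 of 8 members were called, all higher, where 22.1% of all genes were called, 12.2% higher and 9.85% lower. The members' median was 0.76, against 0.01 over all genes. The groups of 2 and 3 libraries did not overlap for 7 of 8 members, all but Irf5, and for 56.6% of all genes. DENHET_136, with 7 Trim21 counts, entered neither group. Its values of the 5 called members lay below both DEN knockout libraries, with Irf7 at 15.8 CPM and Irf9 at 19.7.

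Irf7 was 2.84-fold higher in DEN knockout liver, a log2 difference of 1.505 ± 0.21 (adjusted p = 0.0013, edgeR, n = 2 and 3). Its call held in 11 of 11 fits without 1 library, at 1.25 to 1.72 and adjusted p up to 0.028. Irf9 differed by 0.81 ± 0.19 (0.011), a call lost without DENKO_141 (0.67, 0.14). Irf2 differed by 0.68 ± 0.18 (0.021), lost without DENWT_996, DENKO_141 or DENKO_309, with adjusted p of 0.070, 0.12 and 0.084. The calls of Irf8, 0.82 ± 0.27 (0.047), and Irf1, 0.70 ± 0.23 (0.046), lay near the threshold and held in 3 and 5 of 11 such fits. Both were lost on library totals, too. Without DENKO_141 only Irf7 was called, and without DENWT_996 there were 2 members. Leaving out PBSWT_541, PBSKO_544, DENWT_995 or DENKO_309 gave 3.

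Irf3 at 0.20 ± 0.14 (0.30), Irf5 at 0.06 ± 0.22 (0.87, and −0.0084 on library totals) and Irf4 at 1.116 ± 0.60 (0.19) did not pass. Irf5, the member with the largest fall after DEN in knockout liver, thus had DEN levels of 14.8 ± 3.4 CPM in wild type and 15.4 ± 1.4 in knockout (SD, n = 3 and 2). Irf5 shares 14.1% of its exon bases with Tnpo3 on the other strand, and the strand setting of the counting is not given. Tnpo3, a nuclear import receptor, had values of 0.18 ± 0.13 and −0.09 ± 0.15 after DEN in wild type and knockout.

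Some lists of immune cell markers moved with these differences. Of 16 listed dendritic cell markers 11 were tested. Of these 7 were higher in DEN knockout than in DEN wild-type liver and none lower, with a median of 1.90. Of 10 tested T and NK cell markers 6 were higher. A marker was tested if it had enough counts in 2 libraries, so scarce ones could enter through DEN knockout alone. Siglech, given below, did so, with at most 10 counts in any PBS library. These shares and the median can therefore lean toward markers high in DEN knockout. Dendritic cell markers summed to 111 to 145 CPM in DEN wild type, 211 to 268 in DEN knockout and 282 to 372 under PBS. Bst2, which is also among the ISGF3, IRF3 and IRF7 targets, made up 46.9% to 57.2% of the sum in DEN wild type and 61.2% to 61.4% in DEN knockout. Ly6d ran the other way, with a mean of 34.8 CPM in DEN wild type and 13.5 in DEN knockout. Without these genes the remaining 14 summed to 21.6 to 28.6 CPM in DEN wild type and 64.8 to 93.6 in DEN knockout. The largest of the 14 were the MHC class II genes H2-Ab1, H2-Aa and H2-Eb1. Their means were 5.87, 6.50 and 5.60 CPM in DEN wild type and 19.5, 25.6 and 20.7 in DEN knockout. Clec9a, Zbtb46 and Xcr1 were close, at 3.07, 2.41 and 0.177 against 3.74, 2.51 and 0.213 CPM. Itgax was at 0.674 against 3.68 CPM. T and NK cell markers summed to 2.11 to 2.84 CPM in DEN wild type, 7.56 to 10.6 in DEN knockout and 8.66 to 13.7 under PBS. Siglech, a marker of plasmacytoid dendritic cells, which are known for high IRF7 and IRF8, had 0 to 4 counts in DEN wild type and 11 to 27 in DEN knockout, and Klra17 of the same list had 0 to 3 in both. Of 15 Kupffer cell and macrophage markers 1 was higher, with sums of 278 to 480 against 546 to 618 CPM. Of 13 tested monocyte and neutrophil markers 2 were higher and 1 lower, with a median of −0.12. Of 5 tested B cell and plasma cell markers 1 was higher. Over all genes 12.2% were called higher and 9.85% lower. The part of these cells in the IRF differences was not tested.

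**Figure D3:**
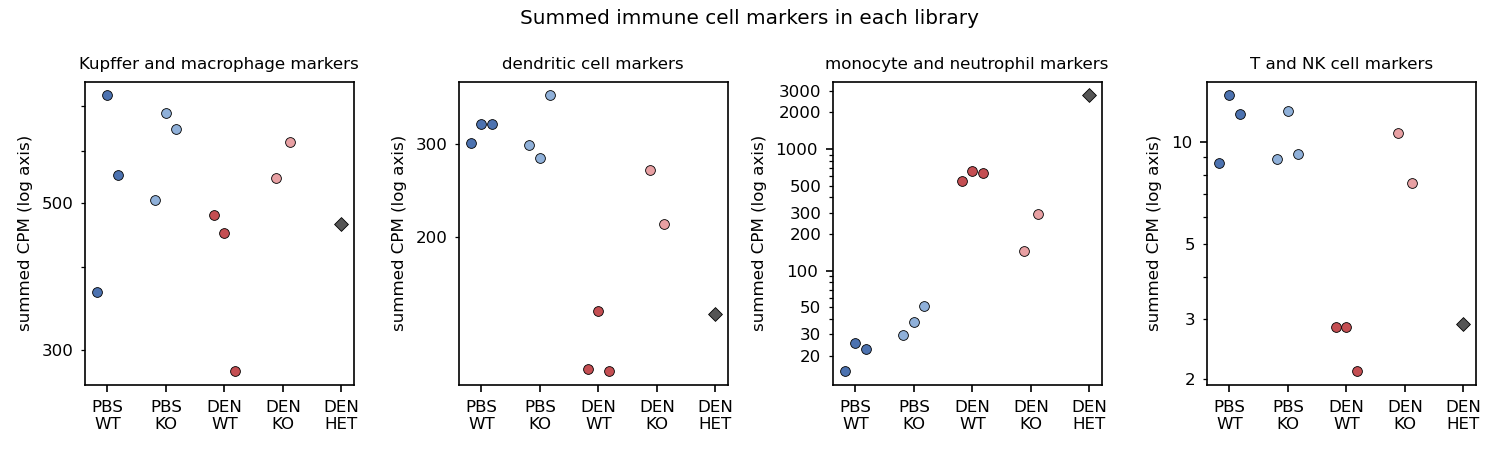
Summed CPM (log axis) of 4 lists of immune cell markers in each library by group; circles are libraries and the diamond is the library labelled heterozygote. Dendritic cell and T and NK cell sums are lowest in DEN wild type and DENHET_136 among all groups, and monocyte and neutrophil sums are 542.4 to 664 CPM in DEN wild type, 144 to 291 in DEN knockout and 2763 in DENHET_136. Lcn2 alone makes up 83.0% to 93.1% of that sum in DEN wild type and 42.3% to 63.5% in DEN knockout, and without it the sums overlap at 43.7 to 113 and 83.1 to 106 CPM.

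The difference between the responses was tested as the interaction, in which a positive value means a higher DEN response without TRIM21. It passed for Irf7 and Irf2, 2 of 8 members and both positive, where 6.58% of all genes passed, 4.07% with a positive and 2.5% with a negative value. Irf7 differed by 1.71 ± 0.28 log2 units (adjusted p = 0.010, edgeR) and Irf2 by 1.28 ± 0.25 (0.018). Each held in 10 of 11 fits without 1 library and was lost without DENKO_141, at 1.46 (0.081) and 1.29 (0.094), which left no member called. For Irf2 the interaction includes its lower value in knockout under PBS. DENHET_136 was outside this fit too. Irf1 at 1.117 ± 0.31 (0.053), Irf9 at 0.84 ± 0.26 (0.068) and Irf8 at 0.90 ± 0.38 (0.15) did not pass, nor did Irf3, Irf4 and Irf5. DESeq2 called 4 members, adding Irf1 (0.016) and Irf9 (0.045), and 4 also passed in edgeR without DENWT_307 or without PBSKO_549.

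Ratios of counts within a library do not depend on the scaling. They were chosen after the values were seen. Irf7 counts were 0.80 to 0.90 of Irf3 counts in PBS wild type, 0.59 to 0.86 in PBS knockout, 0.27 to 0.41 in DEN wild type, 0.71 to 0.92 in DEN knockout and 0.34 in DENHET_136. The DEN wild-type ratios did not overlap those of PBS wild type (exact permutation test, two-sided, p = 0.1) or DEN knockout (p = 0.2), the smallest p these group sizes allow. The Irf2 to Irf1 ratio was 1.57 to 2.50 in PBS wild type and 1.46 to 2.10 in PBS knockout, against 0.82 to 1.33 in DEN wild type and 0.89 to 1.31 in DEN knockout. This ratio of repressor to activator was thus lower after DEN in both genotypes without overlap (exact p = 0.1 and 0.2, again the smallest possible), and the DEN groups overlapped (p = 1).

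**Figure D4:**
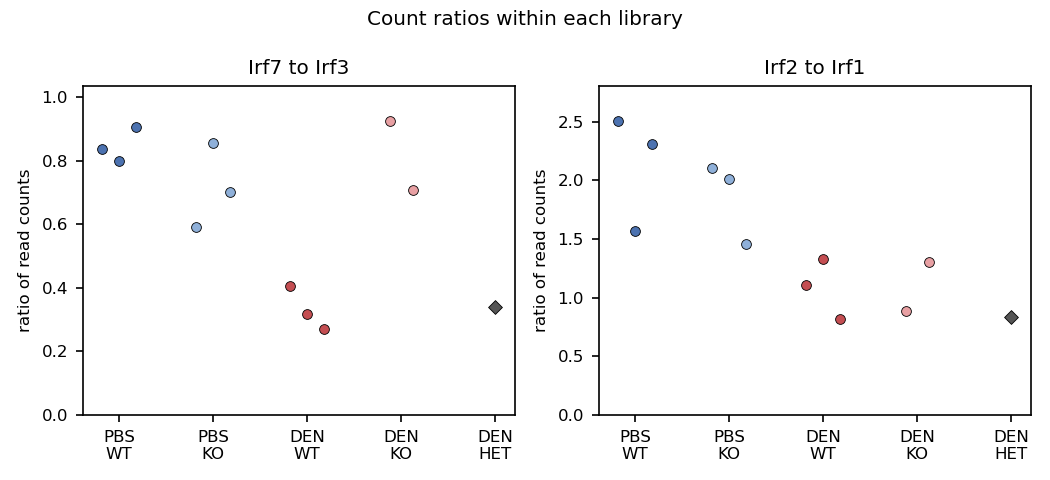
Ratio of read counts of Irf7 to Irf3 and of Irf2 to Irf1 (vertical axes, from 0) in each library by group; the diamond is the library labelled heterozygote. Irf7 to Irf3 is 0.27 to 0.41 in DEN wild type and at least 0.59 in the other 3 groups, while Irf2 to Irf1 is at most 1.33 in every DEN library and at least 1.46 under PBS.

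DENHET_136 was set beside the other DEN libraries without a test. Trim21 in it was 0.286 CPM, against 0.116 and 0.129 in DEN knockout and 5.17 to 7.65 in DEN wild type. By Trim21 it thus lay near the knockout libraries. The reason for its IRF values, given next, was not tested. Its Irf2, Irf4, Irf5, Irf7 and Irf8 values lay inside the DEN wild-type range and none of the 8 lay inside the DEN knockout range, 7 below it and Irf5 above. The DEN knockout range comes from 2 libraries and the DEN wild-type range from 3, so any gene falls outside the former more readily. The shares of all genes inside these ranges were not computed, so these counts have no background. Irf7 at 15.8 CPM had an exact 95% counting interval of 14.2 to 17.4, which covers counting error only. Irf3 at 46.4 (43.7 to 49.2) and Irf9 at 19.7 (17.96 to 21.5) were below all other libraries. Its monocyte and neutrophil markers summed to 2763 CPM, of which Lcn2, an acute-phase gene that hepatocytes also express, made up 95.2%, and the other 14 summed to 131.8 CPM.

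Upstream of the IRFs, sensors and kinases went both ways in wild type after DEN, with 4 of 26 higher and 7 lower, or 10 and 2 on library totals. For this list and those below, the shares of all genes called higher and lower were 29.2% and 26.7% after DEN in wild type. They were 12% and 10.7% after DEN in knockout, 12.2% and 9.85% between genotypes under DEN, and 4.07% and 2.5% in the interaction. The lists were chosen with earlier results of these data known, so their shares are descriptions. With TMM, sensors, receptors and partners each had a smaller share called in wild type than the 55.8% of all genes. Tmem173, which encodes the DNA-signalling adaptor STING, rose by 1.34 ± 0.26 (adjusted p = 0.00062, edgeR) and Tbk1, the kinase that activates IRF3 and IRF7, by 0.94 ± 0.14 (7.7e-05). The RNA sensor genes Dhx58 and Ifih1 fell by 0.89 ± 0.22 (0.0033) and 0.86 ± 0.13 (0.00012), and on library totals the call of Dhx58 was lost (−0.42, 0.081) while Ifih1 had −0.39. In knockout 4 rose and 2 fell, or 13 and 0 on library totals, and without DENKO_309 none was called. Ikbke, the inducible relative of Tbk1, rose there by 0.86 ± 0.19 (0.0066, lost without DENKO_309) and Tlr9, a DNA-sensing Toll-like receptor, by 1.99 ± 0.51 (0.014, lost without either DEN knockout library). Tlr9 passed the filter on low counts only through the DEN knockout libraries. Mavs, the adaptor of RNA sensors, had −0.51 ± 0.17 (0.044) and the IKK subunit gene Chuk −0.47 ± 0.12 (0.014). On library totals and in the fit of the compared groups both calls were lost, as was that of Mavs without any of 5 libraries and that of Chuk without either DEN knockout library.

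Between genotypes under DEN 7 of 26 sensors and kinases were higher in knockout and 1 lower, with 1 higher without DENKO_141 and 4 without DENWT_996. Ikbke was 59.7 ± 2.9 CPM in DEN knockout and 24.9 ± 2.9 in DEN wild type (SD, n = 2 and 3), a difference of 1.27 ± 0.19 (adjusted p = 0.0018, edgeR) that held in all 11 fits without 1 library. Tlr9 and Tlr8, both scarce here, differed by 1.97 ± 0.48 (0.013, lost without DENWT_996 or DENKO_141) and 1.34 ± 0.43 (0.041, lost without any of 7 libraries and under 3 of 6 other settings). Tlr9 had means of 0.180, 0.188 and 0.193 CPM in PBS wild type, PBS knockout and DEN wild type, and 0.747 in DEN knockout. It thus passed the filter on low counts only through the group where it was high. The 1 lower gene was Traf6, an adaptor ligase of Toll-like receptor signals, at −0.73 ± 0.15 (0.0070, lost without DENKO_141). Ikbke, Ifih1 and Ddx58, which encodes the RNA sensor RIG-I, also passed in the interaction. Of the 4 positive calls there, 0 were left in number without DENKO_141 and 1 or 2 without 8 other libraries.

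Interferon genes themselves were almost silent. Of 19 listed, 14 had no count in any library, Ifnb1 among them, and Ifng had at most 3 counts. Ifnk, a type I interferon known from keratinocytes, had 0 counts in all 6 PBS libraries. It was the only 1 of the 19 to be tested, and it passed the filter on low counts through DEN libraries alone. It had 10, 52 and 19 counts in DEN wild type, 21 and 37 in DEN knockout and 18 in DENHET_136. Against a floor of 3 counts over a PBS group that is at least 18.2-fold higher in wild type and at least 21.5-fold higher in knockout. Without 1 library these bounds ran from 9.17 (without DENWT_995) to 23.4 and from 13.7 (without PBSKO_544) to 29.0. Ifnk passed in both genotypes (adjusted p = 0.0070 and 0.018, edgeR, the latter lost without DENKO_309) and the difference between them, 0.09, did not pass.

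Receptors and ISGF3 parts showed 7 of 19 higher and 2 lower after DEN in wild type, and 6 higher and 1 lower in knockout. On library totals 14 and 12 were higher, and without DENKO_309 2 were higher in knockout. Ifngr1, the interferon gamma receptor chain, rose by 0.94 ± 0.14 (adjusted p = 0.00012, edgeR) and 1.02 ± 0.16 (0.00059). Il28ra, the lambda interferon receptor gene, rose by 2.49 ± 0.61 (0.0036) and 2.88 ± 0.67 (0.0079, lost without DENKO_309) from 0.21 and 0.17 CPM. Scarce under PBS, Il28ra passed the filter on low counts only through DEN libraries. In wild type Ifnar2, a chain of the type I receptor, fell by 1.02 ± 0.16 (0.00014). In knockout Ifnar2 had −0.53 ± 0.18 (0.049), a call that held in 3 of 11 fits without 1 library and under 3 of 6 other settings. Between genotypes under DEN 2 of 19 were higher and none lower, with 0 higher without DENKO_141. The 2 of 19 were near the 12.2% of all genes called higher. Stat2, a partner of IRF9, stood at 95.7 ± 5.9 CPM in DEN knockout and 56.2 ± 6.7 in DEN wild type, a difference of 0.77 ± 0.17 (adjusted p = 0.0079, edgeR). No gene of this list passed in the interaction in edgeR, 1 passed in DESeq2, and 3 passed in edgeR without PBSKO_549.

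Targets of ISGF3, IRF3 and IRF7 were called lower in 16 of 27 and higher in 1 after DEN in wild type, with a median of −1.13. In knockout 2 were higher and 1 lower, with a median of 0.10. On library totals 6 were higher in wild type and 10 in knockout, and without PBSKO_549 7 were higher in knockout. Ifi44 and Ifit3, both interferon-induced antiviral genes, fell by 2.79 ± 0.39 (adjusted p = 6.2e-05, edgeR) and 2.32 ± 0.41 (0.00071) in wild type. Cmpk2, a mitochondrial nucleotide kinase, rose in both, by 1.10 ± 0.36 (0.022) and 1.41 ± 0.37 (0.019), calls lost without any of 3 libraries in each. In knockout Oasl2 of the antiviral synthetase family rose by 1.02 ± 0.27 (0.017, lost without PBSKO_154 or DENKO_141) and Bst2, the antiviral tetherin, had −0.65 ± 0.18 (0.019). The Bst2 call was lost without DENKO_309, on library totals (−0.26, 0.22) and in the fit of the compared groups (0.055), and the last setting also lost Oasl2 (0.056) and Cmpk2 (0.10) in knockout.

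Between genotypes under DEN 17 of these 27 targets were higher in knockout and none lower, with a median of 1.24. Without DENKO_141 there were 3 and without DENWT_996 12. The largest differences were those of the chemokine gene Ccl5 at 2.42 ± 0.68 (adjusted p = 0.024, edgeR), the antiviral GTPase gene Mx1 at 2.41 ± 0.47 (0.0052) and Ifi44 at 2.26 ± 0.42 (0.0042), each lost without DENKO_141 and Ccl5 also without DENWT_307 or DENWT_996. In the interaction 7 passed, all higher in knockout, with Ifi44, the ubiquitin-like ligase gene Herc6 and Uba7, which activates ISG15, as the largest. Without DENKO_141 that count was 0, and without PBSKO_549 it was 13.

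IRF1 and IRF8 targets, largely genes of antigen presentation and interferon-inducible GTPases, fell in 21 of 31 and rose in 5 in wild type, with a median of −0.87. In knockout 7 rose and 2 fell. On library totals 12 fell in wild type and 14 rose in knockout, where 4 rose without DENKO_141. Cd74, the invariant chain of MHC class II, fell by 2.19 ± 0.24 (adjusted p = 1.7e-05, edgeR) and Psmb10 of the immunoproteasome by 2.07 ± 0.18 (1.2e-06) in wild type. Cd274, which encodes PD-L1, rose by 2.03 ± 0.23 (9.3e-06) and, in knockout, by 1.70 ± 0.24 (0.00026). Ptgs2, cyclooxygenase 2, had 20 counts against 1 in wild type and 37 against 0 in knockout, at least 13.7-fold higher in the latter with the same floor. Without 1 library that bound ran from 8.46 (without DENKO_309) to 19.6. With so few counts under PBS, Ptgs2 passed the filter only through DEN libraries. The wild-type call of Ptgs2 was lost without any of 5 libraries and with limma-voom (0.073), and the knockout call without DENKO_309. Psmb10 and Psmb8 fell in knockout by 0.88 ± 0.19 (0.0060) and 0.63 ± 0.15 (0.0075), both lost without DENKO_309 and on library totals (−0.49, 0.058, and −0.24, 0.19).

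Under DEN 18 of 31 of these targets were higher in knockout and none lower, with a median of 0.88. There were 3 without DENKO_141 and 9 without DENWT_996. Gbp7, an interferon-inducible GTPase, stood at 15.6 ± 6.2 CPM against 4.24 ± 0.92, a difference of 1.89 ± 0.23 (adjusted p = 0.00060, edgeR). Cd74 differed by 1.75 ± 0.26 (0.0020) and Ciita, the master activator of MHC class II genes, by 2.32 ± 0.60 (0.017, lost without DENKO_141). The first 2 held in all 11 fits without 1 library. In the interaction 10 passed, all higher, led by Gbp7, Gbp3 and the cytokine gene Il15, with 1 without DENKO_141, 3 without PBSWT_542 and 5 without PBSWT_545, PBSKO_154 or DENWT_996.

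Among partners and corepressors, after DEN in wild type 2 of 17 were higher and 5 lower, or 5 and 1 on library totals, and leaving out PBSWT_542 or DENWT_996 gave 2 lower. Relb of the noncanonical NF-kappaB pathway rose by 1.55 ± 0.23 (adjusted p = 9.3e-05, edgeR), and in knockout by 1.15 ± 0.24 (0.0048). Cebpa, a liver transcription factor, fell by 1.45 ± 0.20 (5.9e-05) and 0.94 ± 0.23 (0.011), the latter lost without DENKO_309 and on library totals (−0.55, 0.052). In wild type Ets1, an Ets factor, rose by 0.66 ± 0.25 (0.037) and Bcl6, a repressor, fell by 2.25 ± 0.72 (0.028), calls lost without any of 4 and 5 libraries and, for Bcl6, on library totals (−1.76, 0.068). Between genotypes under DEN the blood cell factors Sfpi1, which encodes the IRF4 and IRF8 partner PU.1, and Ikzf1 were higher in knockout, at 1.25 ± 0.32 (0.016) and 1.115 ± 0.33 (0.029). Both calls were lost without DENWT_996, DENKO_141 or DENKO_309, and that of Ikzf1 also without DENWT_995. Sfpi1 was 7.45 ± 0.71 CPM in DEN knockout and 3.17 ± 1.2 in DEN wild type.

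**Figure D5:**
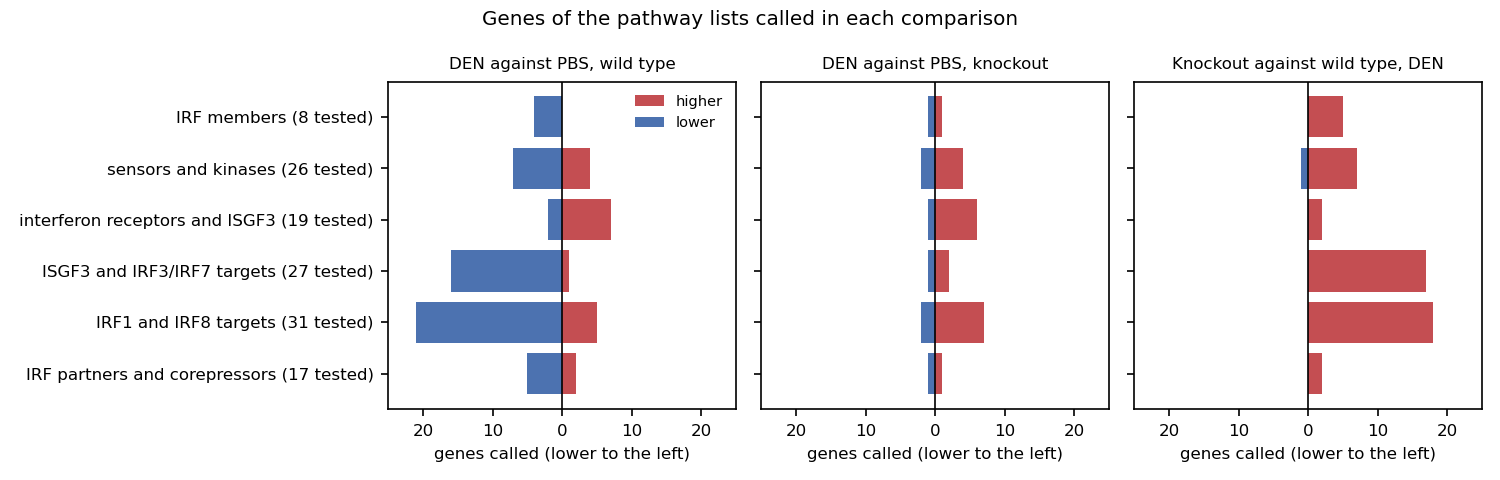
Number of genes called in edgeR in 6 lists of the IRF pathway (bars to the right higher, to the left lower) in 3 comparisons, with the number tested beside each list. Over all genes 29.2%, 12% and 12.2% were called higher and 26.7%, 10.7% and 9.85% lower in these comparisons. The lists were chosen with earlier results of these data known. Targets of ISGF3, IRF3 and IRF7 are 16 lower and 1 higher after DEN in wild type (6 higher on library totals) and 17 higher in knockout against wild type under DEN, a count of 3 without DENKO_141.

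By profile over the 12 libraries, the 2 tested genes most like each member were named by the smallest root mean square difference of log2 CPM. Those of Irf7 were the interferon-induced Gbp7 (0.19) and Herc6 (0.21), where the median over all genes was 0.92. Ifi35 and Anxa4 were nearest to Irf9 (0.18 and 0.19, median 0.58), and Zfp444 and Zer1 to Irf3 (0.07 and 0.08, median 0.50). For Irf8 they were Cyth4 and Axl (0.19 and 0.22), for Irf5 1600021P15Rik and Rin2 (0.15 and 0.16) and for Irf2 BC021891 and Srpk2 (0.18 each). Irf1 was nearest to Unk and Tmem50b (0.21 and 0.22), and Irf4 to Sh3kbp1 and Fam78a (0.21 and 0.30), the latter within the counting error of a handful of reads. These distances are descriptions over libraries that include the treatment itself.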

How the data were processed

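RNA of 12 mouse liver libraries had been counted per gene symbol. The authors deposited raw read counts, 1 file per library, not normalized. Reads had passed through bcl2fastq, TopHat2 and HTSeq with build mm9, per the submitters' processing notes. For versions, annotation and strand setting the answer is "not given in the sources used here", so reads of overlapping genes on opposite strands cannot be told apart. The tally lines that name no gene, 61.4% to 78.7% of all counts, stayed out of library sizes and tests. They made up 71.6% to 78.7% in PBS libraries and 61.4% to 69.6% in DEN libraries. Reads without a unique alignment numbered 2.38 to 3.54 per gene count under PBS and 1.42 to 2.12 under DEN. Neither pair of ranges overlapped, so this difference between libraries cannot be told apart from DEN.

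Counts of 11 libraries were fitted together in edgeR 4.0.16 (R 4.3.3) with the robust quasi-likelihood F test, TMM scaling and filterByExpr, which kept 13255 genes. Benjamini-Hochberg adjustment ran over all of them within each of 5 comparisons, and genes under 0.05 are named as called. The filter asks for enough counts in as many libraries as the smallest group holds, here 2, so a scarce gene can be tested through 1 group alone. SE was taken as the size of the log2 change over the square root of F. Groups come from the library titles, whose numbers never recur, so nothing was paired. The procedure was tested on simulated data. Of 50 genes with a 2-fold change it recovered 60%, 46%, 56%, 44% and 10% in the 5 comparisons, in the order of the report. Of 100 genes with a 1.5-fold change it recovered at most 12%, and 0% in the interaction. A member that was not called is thus not shown to be unchanged. Replicate libraries differed by chi-square values of 23.3 to 78.6 per degree of freedom, far above sampling noise.

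Alternatives were RLE scaling, library totals, DESeq2 1.42.0, limma-voom (limma 3.58.1), no filter, fits of the compared groups alone and leaving out each of 11 libraries. Their use on the pathway lists, the count ratios, marker sums without their leading genes and bounds without 1 library were added after seeing the data. The members and lists were chosen with earlier results of these data known. Apart from Trim21 and the members, genes named follow a rule, of which 1 gene is not reported here: for each list the 2 largest rises and falls called after DEN in each genotype, and up to 3 each way called in the knockout against wild type under DEN and in the interaction. Ifnb1, Ifng, Siglech, Klra17, Ly6d, Lcn2 and Tnpo3 were chosen after their values were seen. So were H2-Ab1, H2-Aa, H2-Eb1, Clec9a, Zbtb46, Xcr1 and Itgax. Symbols that differ in mm9 files were matched through RefSeq synonyms, as Sfpi1 for Spi1. Exact 95% intervals and floors of 3 counts cover counting error only, since reads are not independent molecules. Exon lengths are from GENCODE M21 and promoter windows from RefSeq, both on GRCm38 and used for no coordinate of the counts.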

Additional observations from a re-analysis of the deposited data

Results flagged for a closer look

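The DEN responses of the genotypes differed, by the interaction test, for 2 members and for 9 other genes named above. Each value is a log2 difference, positive where the response was higher without TRIM21. Among members they were 1.71 for Irf7 and 1.28 for Irf2. Of sensors and kinases, Ikbke had 1.01, Ifih1 0.94 and Ddx58 0.94. Of the targets, Ifi44 had 2.69, Herc6 1.61, Uba7 1.52, Gbp7 2.13, Gbp3 1.93 and Il15 1.91. Gbp7 was the single one called in every fit that left out 1 library. The other 10 were lost without DENKO_141, and Ikbke and Il15 held in 2 and 3 of 11 such fits.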

How the results depend on the processing

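Of 670 recomputed member values 591 kept direction and side of the threshold, 37 lost and 18 gained a call, and 24 changed sign. On library totals 2, 4 and 3 members were called for DEN in wild type, DEN in knockout and genotype under DEN, and 5295 genes for DEN in knockout. RLE scaling, DESeq2 and the fit of the compared groups each called 1 member for DEN in knockout, and DESeq2 called 4 members and 1465 genes in the interaction. Without each library in turn, members called were 3 to 6, 0 to 3, 0 to 0, 1 to 5 and 0 to 4 in the 5 comparisons in the order of the report, and genes called 6220 to 7687, 1161 to 3170, 1 to 1, 256 to 3356 and 26 to 1161.

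Signs changed on library totals for DEN in wild type in Irf1 (0.0125), Irf3 (0.0618), Irf4 (0.38), Irf8 (0.0930) and Irf9 (0.20), for DEN in knockout in Irf2 (0.27), Irf3 (0.14) and Irf7 (0.33), and for genotype under DEN in Irf5 (−0.0084). With limma-voom Irf4 was 0.15 for DEN in wild type. Leaving out libraries gave −0.56 to 0.32 for Irf4 after DEN in wild type, −0.31 to 0.15 for Irf7 after DEN in knockout, and under PBS −0.0901 to 0.0881 for Irf3, −0.22 to 0.0433 for Irf8 and −0.18 to 0.12 for Irf9. It gave −0.11 to 0.22 for Irf5 between genotypes under DEN and −0.25 to 0.30 for the Irf2 to Irf1 ratio of the DEN groups (log2). The cause was not tested, except that removing TMM shifts all DEN values by construction. A fit without 1 DEN knockout library leaves a lone sample, assumed to vary like the other groups. No paired analysis was possible because library numbers never recur between groups. Irf4, with 1 to 18 counts, is limited by depth.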
